A study of Mus musculus with 7 samples.

Results

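Clustered replication-dependent histone genes were taken as every row of the deposited expression table whose symbol begins with Hist1h, Hist2h, Hist3h or Hist4h, which gave 69 of 19144 gene symbols. They comprised 6 H1 (linker histone) genes, 19 H2A, 19 H2B, 12 H3 and 13 H4 (core histone) genes. By their symbols, 55 belonged to the Hist1 cluster, 10 to Hist2, 3 to Hist3 and 1 to Hist4. The values came from RNA-seq of mouse cardiac neural crest cells, the crest cells that enter the caudal pharyngeal arches and contribute to the outflow tract and great arteries of the heart.

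The study compared 3 libraries of cells with Chd7 deleted (Wnt1-Cre2; Chd7 loxp/loxp; mTmG), numbered 1, 3 and 4, with 4 wild-type libraries (Wnt1-cre2; Chd7 +/+; mTmG), numbered 1 to 4. Chd7 encodes a chromatin remodeller, and both genotypes carried Wnt1-Cre2, which drives recombination in the neural crest, and the mTmG reporter, which turns green in recombined cells. GFP-positive cells were sorted from arches 3 to 6 at E10.5, and the RNA was depleted of ribosomal RNA, fragmented and copied with random primers by a strand-specific kit. According to the labels, fathers carried Wnt1-Cre2 and 1 floxed Chd7 copy, and mothers were Chd7 loxp/loxp; mTmG/mTmG. Because floxed mothers pass on a floxed copy to each embryo, Chd7 +/+ is used here for the controls only because the labels give it. No litter, date or number of embryos is named, so p-values reflect only how far these libraries vary, and that variation may be technical.

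Replication-dependent histone genes supply the proteins that package newly copied DNA, and their transcripts accumulate in S phase. NPAT, with HINFP at H4 promoters, drives their transcription in specialised nuclear bodies. Their mRNAs usually end in a short stem-loop instead of a poly(A) tail. The stem-loop is bound by the protein SLBP, and the pre-mRNA is cut after it by a machinery that includes the U7 small nuclear ribonucleoprotein with its proteins LSM10 and LSM11 and the factor FLASH, encoded by Casp8ap2. Random priming after ribosomal RNA depletion reads such transcripts, which selection for poly(A) tails would largely miss.

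Gene positions were matched to GENCODE on GRCm38, the build that mm10 names, for all 69 symbols. The Hist1 cluster spanned chr13:21715763-23934851, a stretch of 2219 kb with 54 of the genes. Hist2 lay at chr3:96219865-96270132, Hist3 at chr11:58948920-58956830 and Hist4h4 at chr6:136801553-136804415. The remaining Hist1 symbol, Hist1h2al, is annotated as a processed pseudogene at chr13:51202727-51203065, outside the cluster, and Hist3h2bb-ps is the other processed pseudogene. The annotation calls the other 67 protein-coding.

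The stem-loop that defines this class of mRNA was looked for in the annotated transcripts as GGNNNTTTNNANNNCC within 100 bases after the stop codon, on the sense strand. Among the 69 genes, 44 held a match, namely 4 H1, 11 H2A, 10 H2B, 8 H3 and 11 H4 genes, at 21 to 58 bases after the stop codon (median 31). Many models end too early to hold it. Of the 31 genes with at least 100 annotated bases there, 25 had a match, compared with 33 of 19894 other genes (0.166%). The following sites show the forms found in highly expressed genes and in the genes that the results below turn on. The 16 bases in capitals are the stem-loop, with the flanking bases in lower case, taken from GENCODE transcripts.
Hist1h1e: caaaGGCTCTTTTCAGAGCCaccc
Hist1h2ao: aaaaGGCTCTTTTCAGAGCCatcc
Hist1h2ap: aaaaGGCTCTTTTCAGAGCCatc
Hist1h2bk: caaaGGCTCTTTTAAGAGCCacta
Hist1h3e: aaacGGCTCTTTTAAGAGCCacct
Hist1h4h: caaaGGCCCTTTTCAGGGCCgccc
Hist1h4i: taaaGGCCCTTTTTAGGGCCacca
Hist4h4: caaaGGCCCTTTTCAGGGCCcaca
The form in Hist1h1e, a linker histone gene, and in the H2A genes Hist1h2ao and Hist1h2ap stood in 26 genes of types H1, H2A, H2B and H3. Hist1h2bk and Hist1h3e carried a form found in 6 genes. Forms with CCC and GGG in the stem stood only in H4 genes. That of Hist1h4h and Hist4h4 was in 7 genes, and that of Hist1h4i, which differs in a base of the loop, in 2. Hist1h2ao and Hist1h2ap were alike through the stem-loop, and their annotated coding sequences were identical. For 22 genes, Hist1h1e and Hist4h4 included, the annotated transcript ran more than 100 bases past the stem-loop.

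Promoter sequence was available for 61 of the genes from RefSeq (GRCm38.p6), as 250 bases before and 50 after each start, 300 bases in all. The octamer ATTTGCAT, a known element of H2B promoters bound by OCT1, stood on either strand in 7 of 17 H2A, 6 of 16 H2B and none of the H1, H3 or H4 promoters, compared with 1.75% of 27025 promoters of all genes. CCAAT was in all 6 H1, 17 H2A, 16 H2B and 10 H3 promoters but in 3 of 12 H4 promoters (37.9% of all promoters). The H1 element AAACACA was in 5 of 6 H1 promoters, 2 H2A and 2 H2B promoters (7.14% of all promoters). TATAAA was in 4 H1, 11 H2A, 8 H2B, 4 H3 and 8 H4 promoters (14.2% of all promoters). None of the 4 motifs contains another. A match is only a match of letters. The promoters of 1 linker histone gene and of the H2B genes of 2 head-to-head H2A and H2B pairs are shown, with all 4 motifs in capitals on either strand. They lie at chr13:23622509-23622808 (minus strand, Hist1h1e), chr13:23571150-23571449 (plus strand, Hist1h2bg) and chr13:22035571-22035870 (plus strand, Hist1h2bk).
Hist1h1e: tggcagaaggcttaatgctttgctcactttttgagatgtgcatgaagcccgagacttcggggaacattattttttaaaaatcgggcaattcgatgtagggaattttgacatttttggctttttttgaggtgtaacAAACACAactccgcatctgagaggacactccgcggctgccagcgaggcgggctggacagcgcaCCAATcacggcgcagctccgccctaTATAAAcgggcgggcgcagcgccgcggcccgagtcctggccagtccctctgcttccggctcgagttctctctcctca
Hist1h2bg: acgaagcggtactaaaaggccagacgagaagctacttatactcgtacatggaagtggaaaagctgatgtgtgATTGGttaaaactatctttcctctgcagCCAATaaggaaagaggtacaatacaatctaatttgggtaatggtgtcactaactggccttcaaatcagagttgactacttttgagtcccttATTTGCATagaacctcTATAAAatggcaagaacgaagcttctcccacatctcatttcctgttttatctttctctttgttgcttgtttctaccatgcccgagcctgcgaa
Hist1h2bk: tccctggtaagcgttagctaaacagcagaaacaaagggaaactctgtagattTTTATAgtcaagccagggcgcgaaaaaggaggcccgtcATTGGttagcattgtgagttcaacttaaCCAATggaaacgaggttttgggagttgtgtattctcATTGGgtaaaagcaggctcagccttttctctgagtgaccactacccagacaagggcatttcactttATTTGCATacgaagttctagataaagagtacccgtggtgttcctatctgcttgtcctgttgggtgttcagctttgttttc
In Hist1h1e the AAACACA element stood upstream of CCAAT and TATAAA. Hist1h2bg carried the octamer directly upstream of TATAAA, and Hist1h2bk carried an octamer and 3 CCAAT matches. In 13 pairs an H2A and an H2B gene started back to back, 173 to 306 bases apart, so that both promoter windows of a pair hold much of the same sequence and share octamer matches. Hist1h2bg is paired with Hist1h2ae (176 bases between starts) and Hist1h2bk with Hist1h2ah (302 bases).

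Near-identical copies limit what a single row can show. Coding sequences of 2 genes of a type were alike at a median of 96.67% of bases for H2A, 97.35% for H2B, 97.18% for H3 and 93.85% for H4. Only 4 genes had all of their 50-base stretches to themselves, 35 had under 50% and 5 had none, with a median of 46%. These counts compare each gene with every other annotated gene. All 5 genes with none shared 100% of their stretches with a gene model named Gm. It was Gm20628 for both Hist2h2bb and Hist2h3b, Gm20633 for Hist2h2aa1, Gm20632 for Hist2h2aa2 and Gm20634 for Hist2h3c1. The counts therefore do not measure sharing among histone copies alone. Coding sequences were identical within 5 pairs, Hist1h2ao and Hist1h2ap, Hist1h2bq and Hist1h2br, Hist1h4m and Hist1h4n, Hist2h2aa1 and Hist2h2aa2, and Hist2h3c1 and Hist2h3c2. Values of individual copies are therefore uncertain, and sums over copies or types are given beside them. Hist1h2bq and Hist1h2br, both H2B, had the same FPKM in all 7 libraries and count as 1 measurement. The ratio of Hist2h3c1 to Hist2h3c2, both H3, was 0.319 in 6 libraries and 0.339 in deletion 3. Hist2h2aa1 stood at 30.3 to 32.3 times the FPKM of Hist2h2aa2.

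FPKM values are reads scaled to transcript length and to the total of the library. Sums of FPKM ran from 170809.1 (deletion 1) to 209559.7 (wild type 4), and relative depth, read from the lowest values, from 0.865 (deletion 4) to 1.29 (wild type 2) against wild type 1. The first principal component of all tested genes held 60.45% of the variance and separated libraries numbered 1 and 2 from those numbered 3 and 4, with deletion 1 farthest out. Rn45s, a ribosomal RNA precursor, took 4.84% to 8.68% of the sum in deletion libraries and 4.11% to 7.15% in wild-type libraries, with the higher shares in libraries 1 and 2 of either genotype. Chd7 had 7.50, 7.72 and 7.91 FPKM in deletion libraries 1, 3 and 4 and 14.0, 13.9, 14.6 and 14.3 FPKM in wild-type libraries 1 to 4 (log2 fold change -0.80, SE 0.062, adjusted p = 0.00266, limma). All 14 neural crest and mesenchyme markers passed the expression filter. Of these, 8 were below 0 (65.45% of all genes were), with a median log2 fold change of -0.25. In the test, 3 of the 14 were called higher (Sox10, Foxd3 and Erbb3) and 1 lower (Hand2), against 0.408% and 0.48% of all genes. Each of those 4 calls was lost without deletion 3, deletion 4 or wild type 3, those of Sox10 and Foxd3 also without wild type 2, and that of Sox10 also without wild type 1 (adjusted p 0.0573 to 0.0937, limma). Blood markers summed to 22.8 to 54.9 FPKM in deletion libraries and 22.5 to 38.0 FPKM in wild-type libraries, and no skeletal muscle marker reached the filter. Cardiomyocyte markers summed to 19.7 to 29.7 FPKM in deletion and 13.1 to 31.5 FPKM in wild-type libraries. For epithelial markers the sums were 7.15 to 14.3 FPKM in deletion and 8.37 to 13.1 FPKM in wild-type libraries. Those of endothelial markers were 3.52 to 6.77 FPKM in deletion and 4.57 to 6.68 FPKM in wild-type libraries. In bulk RNA, a smaller share of cells in S phase and less histone mRNA per cell cannot be told apart.

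The clustered histone genes were among the most abundant transcripts of these cells. The median over the tested members was 155 FPKM, against 6.82 FPKM over all tested genes, and 39 of the 200 genes with the highest mean were histone genes. In all, 45 had a mean of 100 FPKM or more and 8 had under 10. Hist1h3e, an H3 gene at chr13:23561534-23562369, was the highest, at rank 15 of all genes. It had 622, 460 and 420 FPKM in deletion libraries 1, 3 and 4 and 643, 598, 487 and 503 FPKM in wild-type libraries 1 to 4. The H2B genes Hist1h2bk and Hist2h2bb came next. Hist1h2bk had 450, 436 and 430 FPKM in deletion libraries and 525, 456, 430 and 486 FPKM in wild-type libraries, and Hist2h2bb had 369, 427 and 417 FPKM in deletion libraries and 410, 395, 389 and 404 FPKM in wild-type libraries. At the other end, the H2A gene Hist1h2aa and its H2B partner Hist1h2ba, known as testis variants, stayed at or below 0.305 FPKM in all 7 libraries, and Hist1h1t, a linker histone of the testis, lay between 0.967 and 1.51 FPKM in deletion and between 0.913 and 1.62 FPKM in wild-type libraries. Hist1h2aa and Hist1h2ba were not tested, which left 67 genes.

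**Figure D1:**
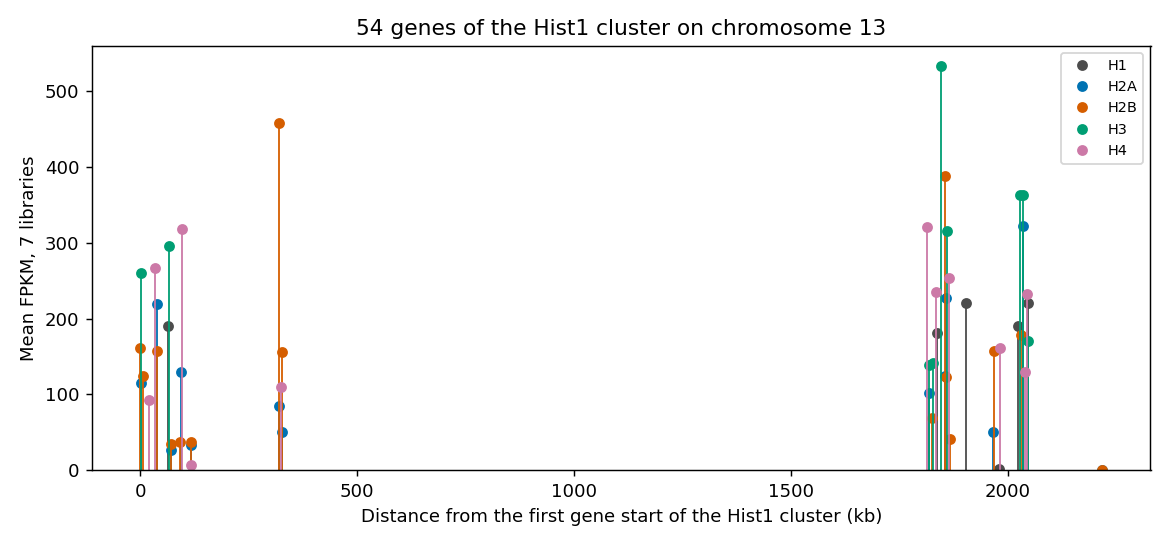
Mean FPKM over the 7 libraries (vertical axis) of the 54 genes inside the Hist1 cluster, by distance in kb from the first gene start (horizontal axis), coloured by histone type. The genes form groups at both ends of the 2219 kb stretch, genes of all 5 types are mixed along it, and the last pair, Hist1h2ba and Hist1h2aa, lies at the baseline.

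Of the 12 head-to-head pairs with a tested H2A gene, 5 were within 2-fold of each other in mean FPKM, a level per length, while H2B was over 2-fold higher in 4 and H2A in 3. Those 5 include Hist1h2ap and Hist1h2br, by means over the 7 libraries of 32.7 and 37.75 FPKM. Hist1h2ap had 74.1 to 78.8 FPKM in libraries 1 and 2 and at most 0.168 FPKM in libraries 3 and 4. Its mean therefore describes no single library. Hist1h2bk averaged 459 FPKM over the 7 libraries and its partner Hist1h2ah 84.5 FPKM. Hist1h2bg averaged 388 FPKM and its partner Hist1h2ae 125 FPKM. The order was the other way for Hist2h2ac, an H2A gene with 97.4 FPKM, and its H2B partner Hist2h2be with 1.32 FPKM, and for Hist3h2a with 191 FPKM and Hist3h2bb-ps with 13.1 FPKM.

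No clustered histone gene passed the test between Chd7 deletion and wild type. Of the 67 tested, 0 passed an adjusted p of 0.05 (limma on log2(FPKM + 1), adjusted over 11039 genes), and the lowest adjusted p was 0.501. Over all genes 98 were called, or 0.888%. At an unadjusted p under 0.05 there were 4 (5.97%), Hist1h2bq, Hist1h2br, Hist4h4 and Hist2h2be, named after their values were seen, compared with 7.38% of all genes. With the identical rows Hist1h2bq and Hist1h2br counted once, these were 3 of 66 (4.55%). The deletion and wild-type libraries did not overlap in 4 genes, Hist1h2bq, Hist1h2br, Hist1h2bp and Hist4h4, each lower in the deletion (5.97%, against 6.17% of all genes lower without overlap and 9.17% in either direction), again 3 of 66 with the identical rows counted once. These shares were at or below those of all genes.

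The intervals were narrow for most of the genes. On the log2(FPKM + 1) scale, the 95% interval excluded a 2-fold change in either direction for 65 of the 67 and a 1.5-fold change for 60. That scale understates changes of low genes, so in FPKM itself both counts are upper limits. Hist1h2al, with a mean of 6.68 FPKM in wild type, was counted among the 65 with an upper limit of 0.969. Its median width was 0.573 on the log2 scale, compared with 0.458 over all tested genes. The median log2 fold change of the 67 was -0.09, beside -0.04 over all genes, and 51 were below 0 (76.1%, against 65.5% of all genes). The members' median was 0.050 below that of all genes. Under median-ratio size factors it was -0.06 beside -0.01 over all genes, and with libraries scaled to the sum without Rn45s it was -0.02 beside 0.03, so these scalings moved both alike. After quantile normalization the order turned, with 0.03 beside 0.0028. Of the 67, 45 were below 0 under size factors, 36 when scaled without Rn45s and 25 after quantile normalization. The offset also depended on single libraries. Without deletion 1, the library farthest from the rest, the medians were -0.11 for the clustered histone genes and 0.02 for all genes, and without deletion 4 they were -0.05 and -0.05.

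**Figure D2:**
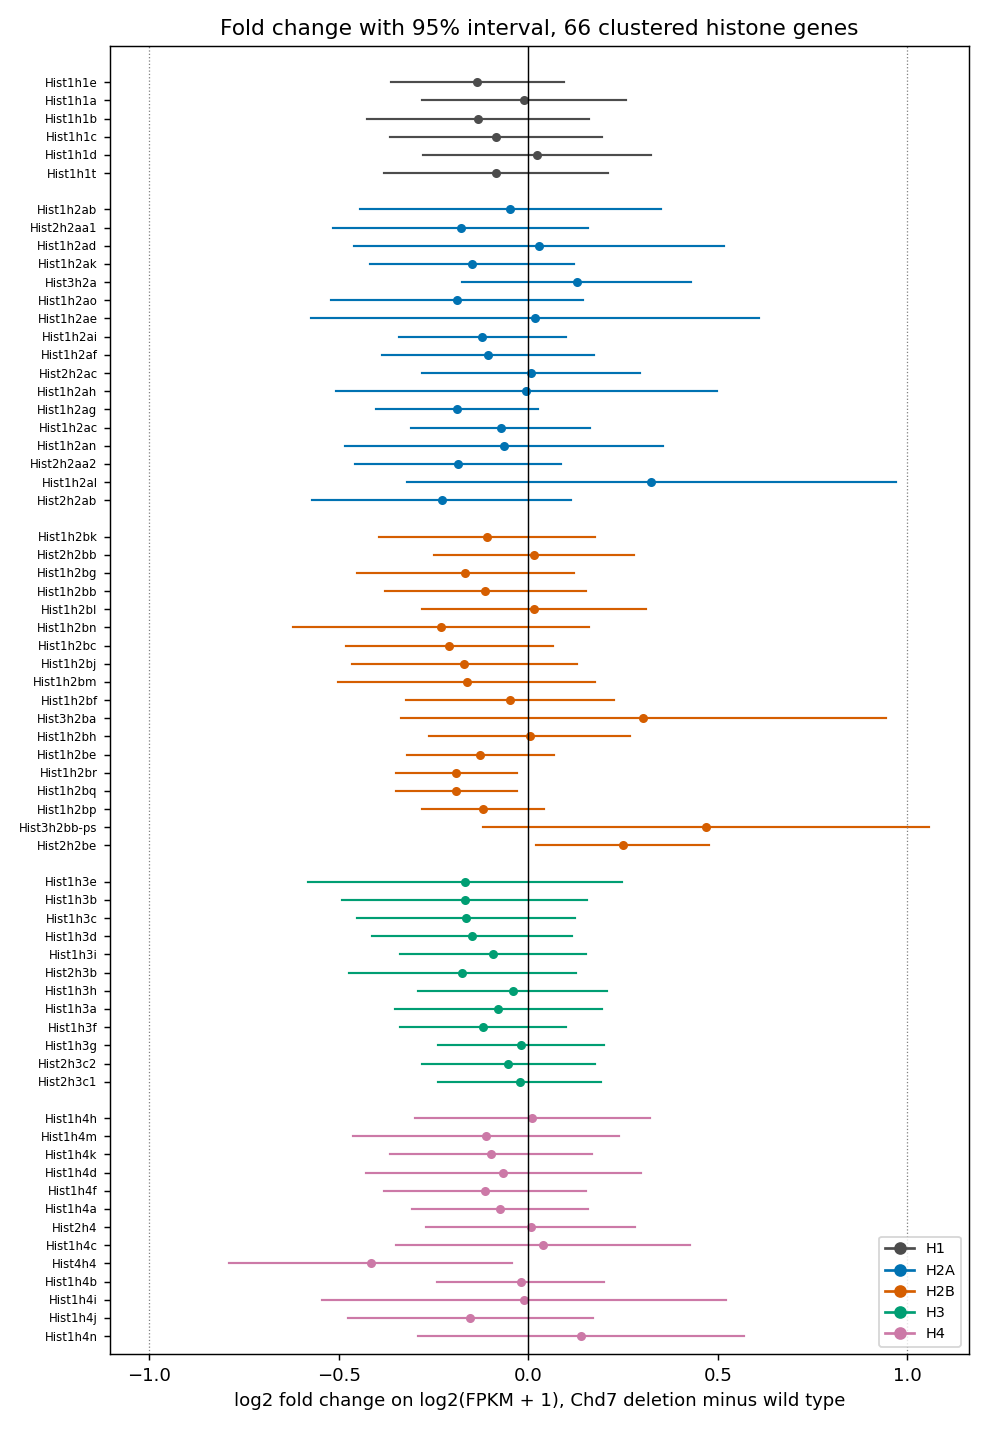
Log2 fold change on log2(FPKM + 1), Chd7 deletion minus wild type (horizontal axis, points), with its 95% interval (lines), for 66 tested genes grouped by histone type and ordered by mean FPKM. Dotted lines mark a 2-fold change on this scale, and Hist1h2ap is left out because its interval runs from -5.78 to 3.73. Most intervals cross 0 and lie inside the dotted lines.

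Summed over all 69 genes, the FPKM was 11048, 10906 and 10109 in deletion libraries 1, 3 and 4 and 12141, 10589, 11092 and 11792 in wild-type libraries 1 to 4. The groups overlapped, since wild type 2 lay below deletion 1 and deletion 3, but wild type 2 has no deletion library of its number. In all 3 numbers that both genotypes have, the deletion library was below the wild-type library, and in 2 of 3 when scaled to the sum without Rn45s. The means were 10687 ± 506 FPKM in the deletion (SD, n = 3) and 11403 ± 697 FPKM in wild type (SD, n = 4), a ratio of 0.937. When libraries were scaled to the sum without Rn45s the ratio was 0.997. Linker histone H1, which binds the DNA between nucleosomes, summed to 977 ± 73.8 FPKM in the deletion and 1025 ± 92.6 FPKM in wild type (SD). H2A summed to 1971 ± 69.5 FPKM in the deletion and 2079 ± 161 FPKM in wild type, and H2B to 2516 ± 130 FPKM in the deletion and 2686 ± 192 FPKM in wild type. For H3 the sums were 2806 ± 208 FPKM in the deletion and 3066 ± 180 FPKM in wild type, and for H4 they were 2418 ± 101 FPKM in the deletion and 2547 ± 221 FPKM in wild type. The ratios by type lay between 0.915 (H3) and 0.952 (H1), and the libraries of the genotypes overlapped in all 5 types. Compared by number, the deletion was lower in 3 of 3 for H2A, H2B and H3 and in 2 of 3 for H1 and H4. Scaled to the sum without Rn45s, it was lower in 2 of 3 for H1, H2A, H2B and H3 and in 1 of 3 for H4.

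**Figure D3:**
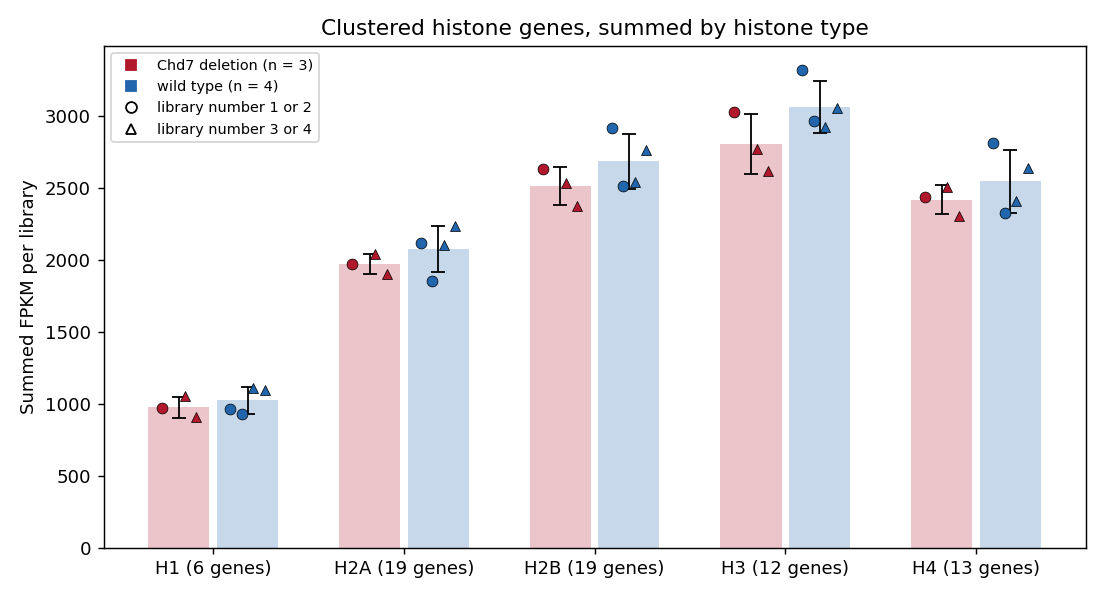
Summed FPKM per library (vertical axis) of each histone type, Chd7 deletion left and wild type right. Bars are means, error bars are the SD, circles are libraries numbered 1 or 2 and triangles those numbered 3 or 4. In all 5 types the libraries of the genotypes overlap.

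The proportions of the 5 types overlapped between the genotypes. H3 made up 25.4% to 27.4% of the clustered histone sum in deletion libraries and 25.9% to 28.0% in wild-type libraries. H4 made up 22.1% to 23.0% in deletion and 21.7% to 23.2% in wild-type libraries. H2B made up 23.2% to 23.9% in deletion and 22.9% to 24.1% in wild-type libraries, and H2A 17.9% to 18.8% in deletion and 17.4% to 19.0% in wild-type libraries. H1 made up 8.77% to 9.66% in deletion and 7.97% to 10.01% in wild-type libraries.

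Among the H1 genes, Hist1h1e had 223, 209 and 196 FPKM in deletion libraries and 228, 217, 237 and 236 FPKM in wild-type libraries (log2 fold change -0.13, 95% interval -0.36 to 0.09). Hist1h1a had 228, 226 and 203 FPKM in deletion libraries and 211, 195, 234 and 245 FPKM in wild-type libraries (-0.01, interval -0.28 to 0.26). Deletion 4 was the lowest deletion library in both genes, and the groups overlapped. Of the 6 H1 genes 5 were below 0, compared with 4 under size factors, 4 when scaled without Rn45s and 2 after quantile normalization.

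The 12 H3 genes were all below 0, by 0.02 to 0.17 on the log2 scale, without any of them reaching the threshold. Their median was -0.11, beside -0.04 over all genes. It was -0.07 beside -0.01 under size factors, -0.03 beside 0.03 when scaled without Rn45s and 0.04 beside 0.0028 after quantile normalization. Of the 12, 10 were below 0 under size factors, 7 when scaled without Rn45s and 4 after quantile normalization. Hist1h3b, at chr13:23752267-23752886, had 374, 327 and 315 FPKM in deletion libraries and 455, 371, 337 and 366 FPKM in wild-type libraries (log2 fold change -0.17, SE 0.141, interval -0.49 to 0.15). For Hist1h3e the log2 fold change was -0.17, with an interval of -0.58 to 0.25. In both genes deletion 1 lay among the wild-type libraries, while deletion 3 and deletion 4 were the lowest libraries of all.

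Of the H4 genes, Hist1h4h, at chr13:23531050-23531519, had 315, 332 and 315 FPKM in deletion libraries and 362, 281, 283 and 356 FPKM in wild-type libraries (log2 fold change 0.01, interval -0.30 to 0.32). Hist1h4m had 338, 302 and 271 FPKM in deletion libraries and 398, 317, 273 and 333 FPKM in wild-type libraries (-0.11, interval -0.46 to 0.24). Hist1h4n, which has the same coding sequence but 14.44% of its 50-base stretches to itself, lay between 6.00 and 8.91 FPKM in the deletion. In wild type it lay between 4.91 and 9.32 FPKM. Hist4h4, the H4 gene on chromosome 6, had 88.0, 139 and 131 FPKM in deletion libraries and 175, 148, 148 and 158 FPKM in wild-type libraries. All 3 deletion libraries were below all 4 wild-type libraries, with deletion 1 well apart (log2 fold change -0.42, SE 0.163, interval -0.79 to -0.04, adjusted p = 0.589). Within libraries 3 and 4 the log2 difference of Hist4h4 was -0.17, and deletion 1 minus the mean of wild types 1 and 2 gave -0.86.

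H2A and H2B genes held the extremes of the fold change. The smallest was that of Hist1h2ap, described with the library numbers further on. Next after Hist4h4 came Hist1h2bn, an H2B gene with 167, 132 and 129 FPKM in deletion libraries and 211, 154, 132 and 177 FPKM in wild-type libraries (-0.23, interval -0.62 to 0.16). Hist2h2aa1, the most abundant H2A gene after Hist1h2ab, had 255, 212 and 199 FPKM in deletion libraries and 298, 247, 211 and 251 FPKM in wild-type libraries (-0.18, interval -0.51 to 0.16). In both, wild type 2 and wild type 3 lay among the deletion libraries, as did wild type 4 in Hist2h2aa1. Hist1h2bq and Hist1h2br had 36.6, 34.5 and 33.5 FPKM in deletion libraries and 40.0, 40.2, 38.7 and 40.8 FPKM in wild-type libraries (-0.19, interval -0.35 to -0.03, adjusted p = 0.501). The groups were apart, by an amount that did not pass the test over all genes.

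The largest fold changes were those of Hist3h2bb-ps, Hist1h2al and Hist3h2ba, 2 of which are pseudogenes. Hist3h2bb-ps had 14.4, 21.9 and 11.3 FPKM in deletion libraries and 15.8, 7.76, 11.8 and 9.15 FPKM in wild-type libraries (0.47, interval -0.12 to 1.06). Hist3h2ba, the H2B gene of the Hist3 cluster, had 107, 83.9 and 55.7 FPKM in deletion libraries and 94.1, 73.0, 54.3 and 45.1 FPKM in wild-type libraries (0.30, interval -0.34 to 0.94). In each genotype its libraries numbered 1 and 2 were above those numbered 3 and 4. Hist3h2a, the H2A gene there, had 216, 208 and 176 FPKM in deletion libraries and 218, 183, 166 and 168 FPKM in wild-type libraries (0.13, interval -0.17 to 0.43), and it shares 31.47% of its 50-base stretches with the neighbour Trim17. The log2 fold changes of all 3 Hist3 genes were above 0, and none passed the test.

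Same-numbered libraries of the genotypes deviated together, and a fit with the library number as a block called 366 genes (3.32%), 115 higher (1.04%) and 251 lower (2.27%) in the deletion. Wild type 2 has no deletion partner and adds nothing to that fold change. Of the clustered histone genes 1 was called in that fit, Hist1h2al (1.49%), which rose (log2 fold change 0.52, SE 0.068, adjusted p = 0.0185, limma with the block). It had 6.60, 10.8 and 7.43 FPKM in deletion libraries 1, 3 and 4 and 3.91, 9.85, 8.23 and 4.74 FPKM in wild-type libraries 1 to 4. Each deletion library was above the wild-type library of its number, although the groups overlapped, and without the block the log2 fold change was 0.32 (interval -0.32 to 0.97, adjusted p = 0.946). This pseudogene shares 65.52% of its 50-base stretches with another annotated gene, Gm20632. With the block 14 of the 67 had an unadjusted p under 0.05 (20.9%), against 22.8% of all genes.

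Within libraries 3 and 4, where 2 deletion libraries face 2 wild-type libraries, both deletion libraries lay below both wild-type libraries in 40 of the 67 genes (59.7%) and above in 4 (5.97%). Over all genes the shares were 32.8% below and 11.6% above. The median log2 difference within these libraries was -0.16, beside -0.04 over all genes. By type, 11 of 12 H3 genes, 10 of 18 H2A, 10 of 18 H2B, 4 of 6 H1 and 5 of 13 H4 genes were below without overlap. Between deletion 1 and wild types 1 and 2 the median was -0.01, beside -0.09 over all genes. Whether the 2 sets of libraries differ in this was not tested, and in a fit of libraries 3 and 4 alone none of the clustered histone genes was called.

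Libraries numbered 3 and 4 differed from those numbered 1 and 2 in many genes, in both genotypes. For the clustered histone genes, libraries 3 and 4 stood apart from libraries 1 and 2 in 14 of 67 genes (20.9%), 8 higher (11.9%) and 6 lower (8.96%) in libraries 3 and 4. Over all genes 38.7% stood apart, 35% higher and 3.71% lower. Fewer libraries separate more easily, and the count was 22 without deletion 4 and 25 when either wild type 2 or wild type 4 was left out. Shares over all genes with a library left out are not given here. These counts are therefore no result about the histone genes. The median step, libraries 3 and 4 minus 1 and 2 within each genotype on the log2 scale, was 0.02 for the clustered histone genes and 0.14 for all genes. Scaling moved both. Under median-ratio size factors the medians were -0.13 and 0.02, with 5 clustered histone genes higher (7.46%, against 16.6% of all genes) and 24 lower (35.8%, against 14% of all genes). When scaled to the sum without Rn45s they were -0.19 and -0.04, with 4 higher (5.97%, against 11.2%) and 28 lower (41.8%, against 17.8%). The median of the clustered histone genes was thus below that of all genes under all 3 scalings, while the split into higher and lower differed between them.

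As a share of the library, the clustered histone genes took 6.47%, 5.29% and 5.30% of the FPKM sum in deletion libraries 1, 3 and 4 and 6.23%, 5.68%, 5.47% and 5.63% in wild-type libraries 1 to 4. In each genotype the share was higher in libraries 1 and 2. The share of Rn45s moved the same way, and its part in this was not tested. Leaving Rn45s out of the sum gave 7.08%, 5.57% and 5.57% in deletion libraries and 6.71%, 6.07%, 5.72% and 5.87% in wild-type libraries, with the same order of the sets. Histone genes outside the clusters had a median step of 0.22 over 11 tested genes. Most of these, though not all, are transcribed throughout the cell cycle and carry poly(A) tails. The 25 S phase and DNA replication genes had a median step of 0.30. Deletion 1 held the lowest sum of the replication-independent histone genes, and sums ran from 964 to 1412 FPKM in deletion and from 1301 to 1486 FPKM in wild-type libraries.

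**Figure D4:**
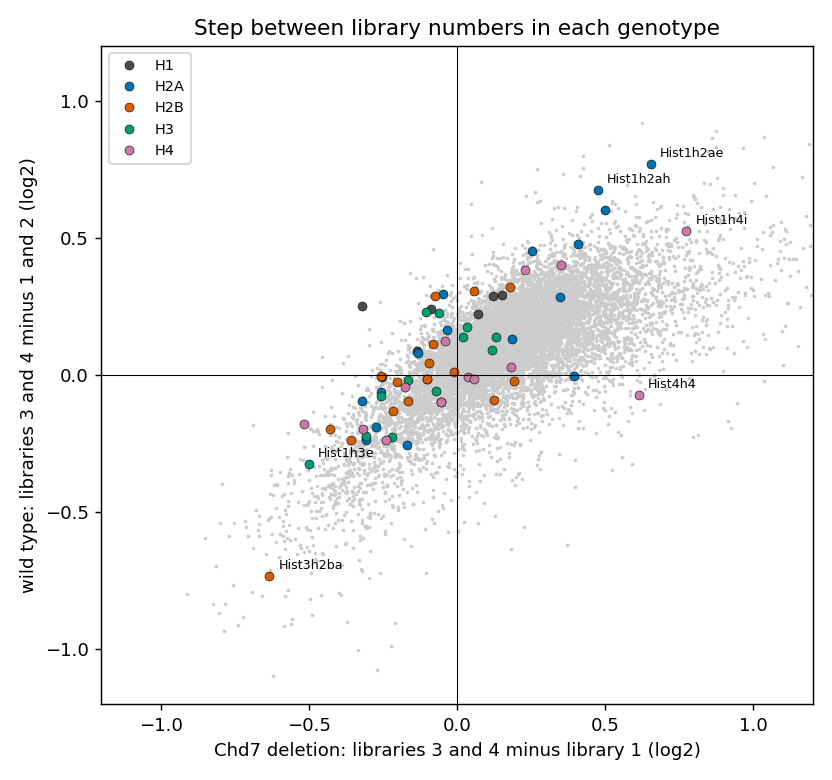
Step between library numbers on the log2(FPKM + 1) scale, in the Chd7 deletion (libraries 3 and 4 minus library 1, horizontal axis) and in wild type (libraries 3 and 4 minus 1 and 2, vertical axis). Coloured points are 66 clustered histone genes, Hist1h2ap being off the scale, and grey points 10930 other tested genes. The histone genes spread along the diagonal around 0, with Hist1h2ae, Hist1h2ah and Hist1h4i at the upper right and Hist3h2ba at the lower left.

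The largest upward steps belonged to 2 H2A genes and 1 H4 gene. Hist1h2ae had 89.9, 147 and 137 FPKM in deletion libraries 1, 3 and 4 and 95.7, 88.8, 157 and 158 FPKM in wild-type libraries 1 to 4. Its log2 step was 0.71 and its deletion fold change 0.02 (interval -0.57 to 0.61). Hist1h2ah had 66.0, 98.2 and 86.5 FPKM in deletion libraries and 64.9, 65.7, 102 and 108 FPKM in wild-type libraries, with a step of 0.58. Hist1h4i had 74.5, 130 and 126 FPKM in deletion libraries and 83.1, 97.1, 136 and 124 FPKM in wild-type libraries, with a step of 0.65. In all 3 genes both genotypes fell into the same separate ranges by library number. Hist1h2ab, the most abundant H2A gene, had 279, 347 and 318 FPKM in deletion libraries and 303, 253, 364 and 394 FPKM in wild-type libraries, with a step of 0.35.

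The partners across the shared promoters did not step with them. Hist1h2bg, which starts back to back with Hist1h2ae, had 408, 353 and 329 FPKM in deletion libraries and 432, 383, 392 and 419 FPKM in wild-type libraries, a step of -0.13. Hist1h2bk, the partner of Hist1h2ah, had a step of -0.08. Sharing of sequence was found in H2A genes with and without such a step. Hist1h2ah shares 87.36% of its 50-base stretches with Hist1h2ad, Hist1h2an 80.52% with Hist1h2ah, and Hist1h2ae 38.47% with Hist1h2ad, all of which stepped up. Hist1h2ai shares 84.01% and Hist1h2af 79.71% with Hist1h2ad, and their steps were 0.16 and -0.16. Hist1h2ad had 179, 264 and 244 FPKM in deletion libraries and 188, 172, 279 and 268 FPKM in wild-type libraries. Over all 67 genes the median size of the step was 0.159 in the 35 genes with under 50% of stretches to themselves, 0.122 in the other 32 and 0.178 over all tested genes. The sets stood apart in 10 of those 35 (28.6%) and in 4 of those 32 (12.5%), both below the 38.7% of all genes. This split counts stretches shared with any other annotated gene, not only with histone copies.

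Hist1h2ap, an H2A gene at chr13:21833026-21833507, moved in the opposite direction and by far the most. It had 75.7, 0.0113 and 0.168 FPKM in deletion libraries 1, 3 and 4 and 74.1, 78.8, 0.0354 and 0.124 FPKM in wild-type libraries 1 to 4. It was thus high in libraries 1 and 2 of either genotype and near 0 in libraries 3 and 4. Of 19144 genes it was the only one with at least 10 FPKM in every library of one set and under 1% of that in every library of the other, a rule set after its values were seen. Its deletion fold change was -1.03 on the log2 scale with an interval of -5.78 to 3.73, and within libraries 3 and 4 the difference was 0.01. Its head-to-head partner Hist1h2br had a step of -0.06.

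Hist1h2ao, at chr13:21810465-21810944, has the same coding sequence as Hist1h2ap and shares 93.5% of its 50-base stretches with it. Hist1h2ao had 122, 116 and 119 FPKM in deletion libraries and 144, 105, 139 and 163 FPKM in wild-type libraries. Its libraries 1 and 2 lay at 105 to 144 FPKM and its libraries 3 and 4 at 116 to 163 FPKM. Both together had 197, 116 and 119 FPKM in deletion libraries and 218, 183, 139 and 163 FPKM in wild-type libraries, 0.674-fold in libraries 3 and 4. The H2A total was 1.04-fold in libraries 3 and 4, and 1.09-fold when Hist1h2ap was left out. How reads of near-identical copies were assigned in each library is not given in the sources used here, and its part in these steps was not tested.

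**Figure D5:**
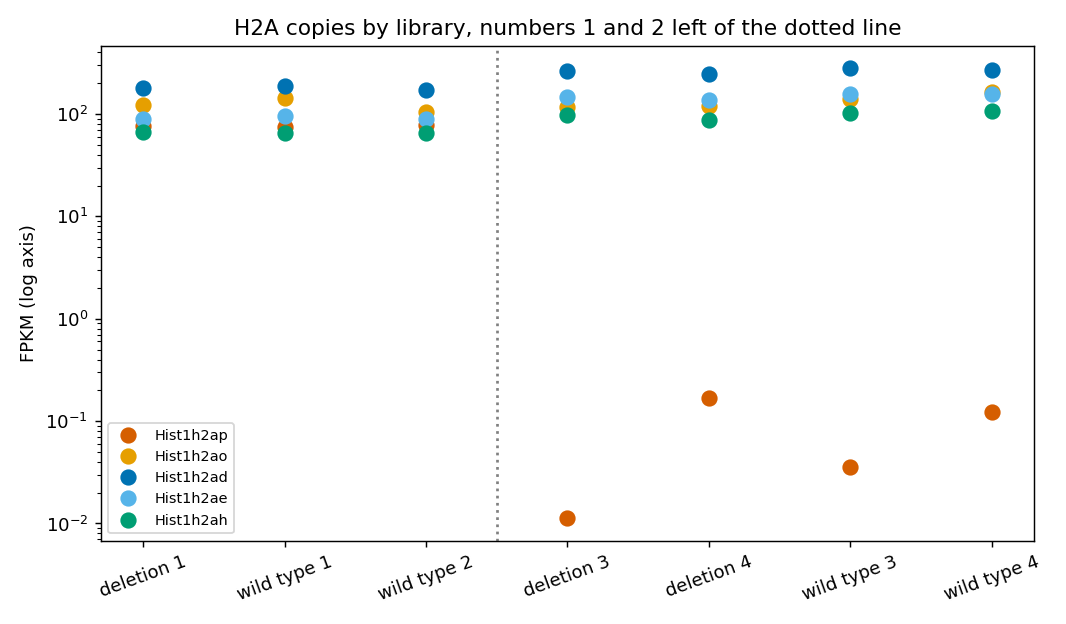
FPKM (log axis) of 5 H2A genes in each library, with numbers 1 and 2 left of the dotted line and 3 and 4 right of it, deletion before wild type on each side. Hist1h2ap lies at 74.1 to 78.8 FPKM on the left and at 0.0113 to 0.168 FPKM on the right in both genotypes. Hist1h2ad, Hist1h2ae and Hist1h2ah are higher on the right, and Hist1h2ao is at a like level on both sides.

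Downward steps were smaller. Hist3h2ba had the next lowest, at -0.68, and Hist1h3e followed at -0.41, its libraries 1 and 2 at 598 to 643 FPKM in both genotypes and its libraries 3 and 4 at 420 to 503 FPKM. Besides Hist1h2ap and Hist1h3e, the genes lower without overlap in libraries 3 and 4 were Hist1h2ak, Hist1h3b, Hist2h3b and Hist1h4d. In Hist3h2ba the sets overlapped across the genotypes, since wild type 2 (73.0 FPKM) lay below deletion 3 (83.9 FPKM). Those higher without overlap, besides Hist1h2ae, Hist1h2ah, Hist1h4i and Hist1h2ab, were Hist1h1d, Hist1h2ad, Hist1h2an and Hist1h2bl.

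Genes that make and process histone mRNA were measured beside the histone genes. None of the 11 tested genes of histone gene transcription passed the test in either direction (median log2 fold change -0.06), nor did any of 15 genes of 3′ end processing (-0.11), 7 of histone mRNA decay (-0.03), 19 histone chaperone genes (-0.09), 11 replication-independent histone genes (-0.17), 25 S phase genes (-0.17) or 18 genes of the G2 and M phases (-0.15), against 0.408% called higher and 0.48% called lower over all genes. Npat, the histone gene coactivator, had 5.26, 5.54 and 6.82 FPKM in deletion libraries and 5.59, 5.73, 6.75 and 6.45 FPKM in wild-type libraries (-0.06, interval -0.29 to 0.17). Hinfp, the H4 promoter factor, had 4.16, 4.28 and 5.68 FPKM in deletion libraries and 4.82, 3.98, 4.90 and 4.79 FPKM in wild-type libraries (0.02, interval -0.24 to 0.27). Casp8ap2 had 7.76, 9.44 and 9.91 FPKM in deletion libraries and 8.87, 8.52, 11.3 and 11.4 FPKM in wild-type libraries (-0.13, interval -0.42 to 0.16). In all 3 genes the genotypes overlapped.

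Slbp, which encodes the stem-loop binding protein, had 17.2, 25.2 and 24.8 FPKM in deletion libraries 1, 3 and 4 and 22.8, 24.8, 29.1 and 33.5 FPKM in wild-type libraries 1 to 4. Each deletion library was below the wild-type library of its number, although the groups overlapped. Its log2 fold change was -0.29 (interval -0.67 to 0.09, adjusted p = 0.855). With the library number as a block it fell, by 0.34 on the log2 scale (adjusted p = 0.0495, limma). With the set of libraries as a covariate it fell by 0.36 (adjusted p = 0.0148, limma). Over all 11039 genes, the block called 251 lower (2.27%) and the set covariate 551. With neither, 24 of the 25 S phase genes, Slbp among them, were below 0, as were 65.45% of all genes. Whether the block or the set covariate also called other S phase genes is not given here. Lsm10 had 2.71, 4.50 and 4.21 FPKM in deletion libraries and 3.53, 3.23, 3.34 and 4.49 FPKM in wild-type libraries (0.04, interval -0.31 to 0.38). Lsm11 lay between 3.01 and 3.22 FPKM in deletion libraries and between 3.03 and 3.33 FPKM in wild-type libraries (interval -0.16 to 0.15). The FPKM of both genes overlapped between the genotypes.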

How the data were processed

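The authors deposited 1 table of FPKM values for 7 libraries. In the submitters' processing notes the build is mm10 and the tools are Trimmomatic 0.38, HISAT2, SAMtools, Partek and bcl2fastq 2.18.0.12. How reads were annotated, whether strand was used and where reads matching several copies went is not given in the sources used here. Of 19169 rows, 25 with a date for a symbol were left out. The 11039 genes averaging 1 FPKM or more were tested on log2(FPKM + 1), a scale that understates changes of low genes, with limma 3.58.1 in R 4.3.3 (variance trend, 2-sided, Benjamini-Hochberg adjustment over all genes, threshold 0.05), after a check on simulated data. Tables used pandas 2.3.3 and numpy 2.4.6, figures matplotlib 3.10.9, all in Python 3.11.15. Absolute depth is unknown.

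Same-numbered libraries of the genotypes, numbered in the labels, deviated together from their group means (r = 0.704, 0.399 and 0.775 for numbers 1, 3 and 4). Different numbers of the same set also did (r = 0.592 for deletion 1 with wild type 2, 0.377 for deletion 4 with wild type 3 and 0.250 for deletion 3 with wild type 4), so pairing by number is hard to tell apart from the sets. The block value is given where it changes a call. Alternatives were pseudocounts of 0.1 and 0.5, filters of 0 and 5 FPKM, size factors, scaling without Rn45s, quantile normalization, the block, the set of libraries as a covariate, libraries 3 and 4 alone, robust and untrended variance, and each library left out. The scalings and left-out libraries for the comparison of library numbers were added after seeing the data. Members and lists were chosen with earlier results of these data known. Named genes were the 2 highest of each histone type, the 3 largest and 3 smallest fold changes and steps, any member called, and 6 regulators. Others were named after their values were seen.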

Additional observations from a re-analysis of the deposited data

Results flagged for a closer look

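Among 35 sets of wild-type values checked, 2 held a library far from the others, a number near the 1 in 20 that chance gives. Hinfp had 3.98 FPKM in wild type 2, below the other 3 wild-type libraries at 4.79 to 4.90 FPKM. Lsm11 had 3.33 FPKM in wild type 1, above the other 3 at 3.03 to 3.07 FPKM. Neither is a clustered histone gene.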

How the results depend on the processing

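The number of genes called over all genes was 98. It was 62 with no filter, 32 with a mean of at least 5 FPKM, 155 under size factors, 366 with the replicate block, 720 with the set covariate, and 4 to 72 when 1 library was left out, lowest without deletion 3 (12), deletion 4 (4) or wild type 3 (4). Clustered histone genes called stayed at 0 in all but the replicate block, which called 1 (Hist1h2al) and, among the named genes, also called Slbp and ended no call. Their median log2 fold change was 0.032 after quantile normalization, and the ratio of summed FPKM 0.997 without Rn45s. Of the 67 clustered histone genes tested, 29 stood apart by library number under size factors (43.3%, against 30.6% of all genes). Without Rn45s 32 did (47.8%, against 29% of all genes). When 1 library was left out, 15 to 25 did, with no share over all genes given here. The causes were not tested.

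Signs turned in these log2 fold changes, none of which was called. Under size factors, Hist1h1a was 0.025, Hist1h2ah 0.031, Hist1h4i 0.025 and Lsm11 0.024. Scaled without Rn45s, Hist1h1a was 0.069, Hist1h2ab 0.034, Hist1h2ah 0.075, Hist1h4i 0.069, Npat 0.014 and Lsm11 0.058. After quantile normalization, Hist1h1a was 0.12, Hist1h1e 0.032, Hist1h2ab 0.098, Hist1h2ah 0.098, Hist1h4i 0.081, Hist1h4m 0.032 and Lsm11 0.011. With the replicate block, Hist1h2ae was -0.13, Hist1h2ap 0.017, Hist1h4h -0.049, Hinfp -0.042 and Lsm10 -0.0072. With the set covariate, Hist1h2ae was -0.10, Hist1h2ap 0.00058, Hinfp -0.010, Lsm10 -0.015 and Lsm11 0.0046. In libraries 3 and 4 alone, Hist1h2ae was -0.15, Hist1h2ap 0.010 and Lsm11 0.0032. With 1 library left out, the range was Hist1h1a -0.070 to 0.041, Hist1h2ab -0.17 to 0.047, Hist1h2ae -0.13 to 0.24, Hist1h2ah -0.13 to 0.15, Hist1h2ap -3.07 to 0.050, Hist1h4h -0.049 to 0.072, Hist1h4i -0.15 to 0.25, Hist2h2bb -0.026 to 0.079, Npat -0.15 to 0.0077, Hinfp -0.10 to 0.083, Lsm10 -0.073 to 0.21 and Lsm11 -0.023 to 0.019. Single copies, and genes under 10 FPKM, are limited by shared sequence and by few reads.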
